A study of Gallus gallus with 12 samples.

Results

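The myeloid lineage transcription factors described here are 9 genes, namely SPI1, CEBPA, CEBPB, CEBPD, RUNX1, MYB, MEF2C, MAF and KLF4. They were found by gene symbol in a table of read counts, which listed all 9 of them among its 16161 genes, and all 9 passed the filter on low counts in every comparison made. The counts come from RNA-seq of HD11, a chicken macrophage-like cell line that descends from bone marrow cells transformed by an avian retrovirus carrying a myc oncogene, so the cells stand for 1 transformed line and not for primary macrophages. All groups were the same line in the same medium. The Control group received PBS, the LPS group received lipopolysaccharide at 100 ng/mL for 6 h, and the SeMC+PBS group received Se-methylselenocysteine (SeMC, a selenium-containing amino acid) at 100 µM from about 12 h before the challenge and PBS in place of LPS. Each group had 3 replicates, and the sample labels do not say whether these were separate cultures, so the p-values measure the spread between these libraries, which may be technical. The SeMC+LPS libraries were left out, because their counts equal the mean of the LPS and SeMC+PBS counts of the same replicate number, rounded down, for 9 of the 9 factors and for 16160 of all 16161 genes.

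In the myeloid lineage, SPI1 (PU.1, an ETS-family factor) and the C/EBP proteins, which are basic leucine zipper factors, open and activate the genes of monocytes and granulocytes. RUNX1 binds DNA together with CBFB and acts upstream in blood cell formation, and MYB keeps progenitors dividing and is known in birds as the cellular counterpart of a myeloid leukaemia oncogene. MEF2C, MAF and KLF4 act later in mammals, in the balance between monocytes and granulocytes, in the resting and less dividing state of macrophages and in monocyte differentiation. Chicken CEBPB was first described as NF-M, a nuclear factor of myelomonocytic cells that works with MYB proteins on the mim-1 gene. LPS is sensed by Toll-like receptor 4, and CEBPB and CEBPD are well-known LPS-responsive genes in mammalian macrophages.

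The total count was 14972385 to 17024392 per Control library, 13451069 to 14018893 per LPS library and 10656332 to 11531551 per SeMC+PBS library. Across 13466 genes the correlation of log2 levels between libraries was at least 0.992 within a group and at most 0.978 between groups, so no library stood apart. Levels are given as CPM, counts scaled to a common library size with TMM factors, which corrects for depth but not for transcript length, and levels of different genes were therefore not ranked against each other. The macrophage label was checked with 7 marker genes, all of them in the table. CTSS (402 to 479 CPM), CYBB (485 to 949 CPM) and TLR4 (53.3 to 81.7 CPM) were well above the floor in all 9 libraries, whereas MARCO (3.03 to 8.77 CPM) and MRC1 (0.678 to 3.52 CPM) were low. The summed level of the 7 markers was 1434 to 1514 CPM in Control, 1482 to 1546 CPM in LPS and 1294 to 1417 CPM in SeMC+PBS. Its members did not move together, since in LPS/CTR the gene CYBB was called higher and CSF1R (49.9 to 365 CPM over the 9 libraries), MARCO and MRC1 lower, by the rule given with the comparison, while CTSS, TLR4 and CD14 (32.2 to 51.0 CPM) were not called. The part of these marker changes in the results for the factors was not tested. Defining markers of other lineages were at or near 0, with at most 4 counts of PAX5, 6 of PDGFRA, 10 of CD3E and 27 of HBBA in any library. COL1A1 was detected at 112 to 199 counts, and the summed level of the 2 fibroblast markers in the table was 7.41 to 10.7 CPM in Control, 10.6 to 13.5 CPM in LPS and 13.5 to 18.1 CPM in SeMC+PBS. COL1A1, HBBA and the thrombocyte gene ITGA2B were called higher in SeMC+PBS than in Control, and their part in the differences of the factors was not tested. In bulk libraries, fewer cells of a type and less RNA per cell cannot be told apart.

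LPS/CTR asks how the factors that define the lineage responded to an inflammatory stimulus, and it separated them into a set that rose and a set that fell. SPI1, CEBPA, CEBPB and RUNX1 were 1.68- to 2.09-fold higher in LPS than in Control, and MEF2C, MAF and KLF4 were 2.84- to 4.35-fold lower. CEBPD and MYB were also higher, by 1.40-fold and 1.33-fold, which is below the fold change of 1.5 that the study required. A gene is termed called here at an adjusted p (FDR) under 0.05 and a fold change above 1.5. By this rule 4 of the 9 factors were called higher and 3 lower, against 6.13% and 5.92% of the 13008 genes tested. At FDR under 0.05 alone, 6 were higher and 3 lower, against 18.0% and 16.5% of the genes tested. The median log2 fold change of the 9 factors was 0.48, and that of all genes tested was -0.0015. The LPS and Control libraries did not overlap for any of the 9 factors, as for 46.5% of all genes tested.

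**Figure D1:**
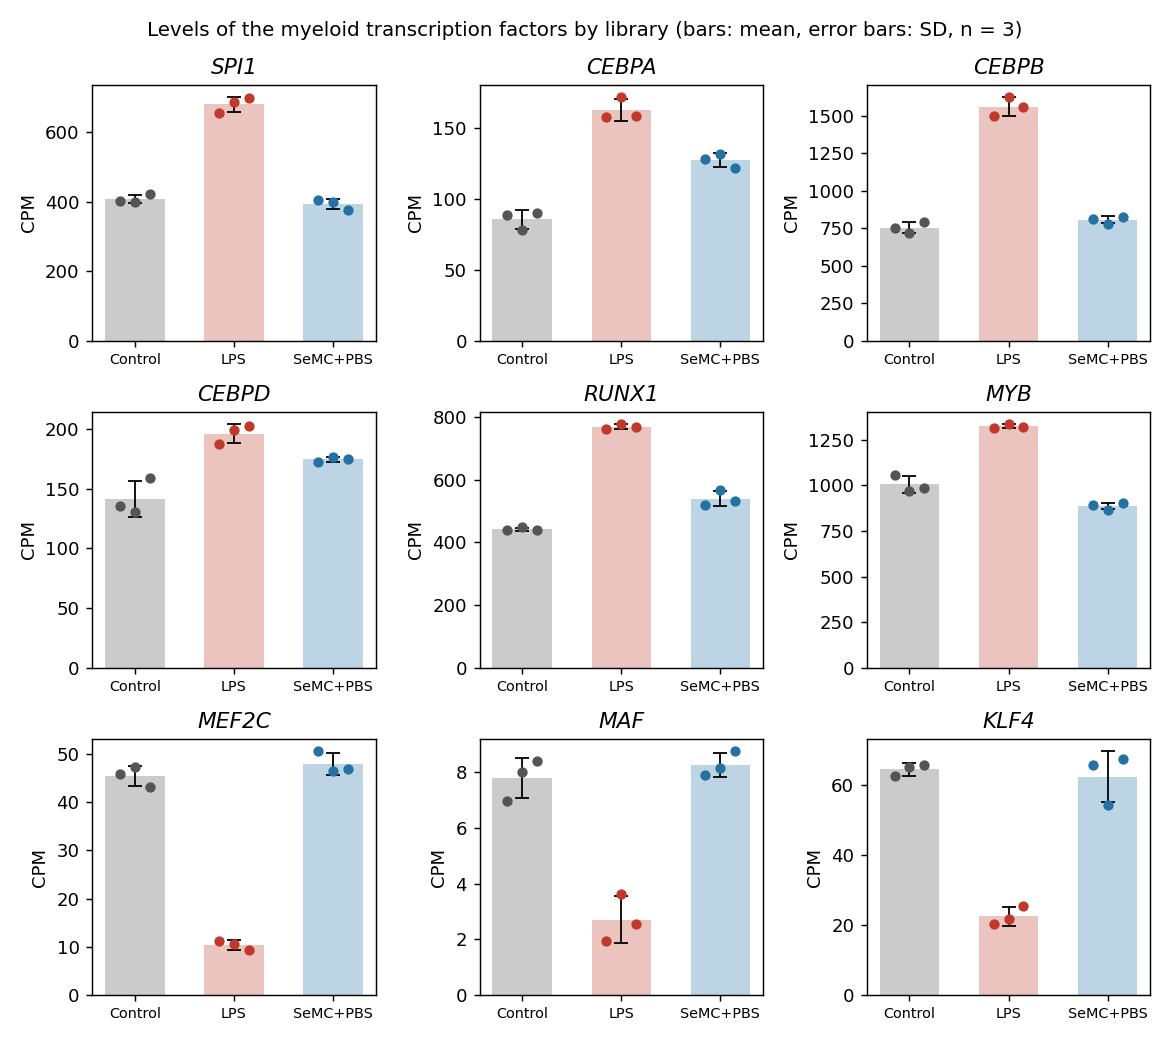
Level of each factor (CPM, linear axis from 0) in the Control, LPS and SeMC+PBS groups. Points are libraries, bars are means and error bars are SD (n = 3). SPI1, the 3 C/EBP genes, RUNX1 and MYB are highest in LPS, and MEF2C, MAF and KLF4 are lowest there, with LPS points that do not touch those of the other groups.

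SPI1 lies on chromosome 5 (22480518 to 22502269, GRCg7b). Its level was 403, 398 and 421 CPM in the Control libraries and 657, 687 and 697 CPM in the LPS libraries. Every LPS library was above every Control library, and the means were 408 ± 12.2 and 680.2 ± 21.1 CPM (SD, n = 3). The log2 fold change was 0.75 (SE 0.0481, FDR 1.0e-08 by the quasi-likelihood test of edgeR with Benjamini-Hochberg adjustment).

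RUNX1 (chromosome 1, 106105351 to 106258778) had the smallest spread between Control replicates of the 9 factors, a coefficient of variation of 1.07%. It rose from 440.5, 448 and 439 CPM in Control to 761, 777 and 770.3 CPM in LPS. The groups lay far apart relative to this spread, with a log2 fold change of 0.81 (SE 0.0462, FDR 2.7e-09 with edgeR). CBFB, the partner with which RUNX proteins bind DNA, had 328 ± 16.8 CPM in Control and 356 ± 7.06 CPM in LPS (SD, n = 3), a log2 fold change of 0.13 with an adjusted p of 0.058 in the same test.

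MYB (chromosome 3, 55375432 to 55401161) is a progenitor factor that many mature myeloid cells switch off, yet all 9 libraries of this line held 9553 to 18091 counts of it. Its level was 1058, 971 and 987 CPM in Control and 1315, 1336 and 1323 CPM in LPS. The LPS libraries were all higher, by a log2 fold change of 0.41 (SE 0.0498, FDR 1.2e-05 with edgeR), and the interval of 1.24- to 1.43-fold (95% confidence) lay wholly under the fold change of 1.5. Its relatives MYBL1 and MYBL2 were lower in LPS at FDR under 0.05, with log2 fold changes of -0.46 and -0.32.

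The 3 C/EBP genes did not respond to the same extent. CEBPB (chromosome 20, 14051150 to 14052880) had 755, 717 and 792 CPM in Control and 1498, 1627 and 1562 CPM in LPS. This was the largest rise among the 9 factors, a log2 fold change of 1.06 (SE 0.0527, FDR 5.4e-10 with edgeR), and 5.42% of all genes tested had a larger change in either direction. CEBPA (chromosome 11, 9940192 to 9941462), the family member that drives granulocyte and monocyte commitment in mammals, rose from 88.7, 77.5 and 89.7 CPM to 158, 171 and 158 CPM. Its groups did not overlap either, and the log2 fold change was 0.94 (SE 0.0647, FDR 2.4e-08 with edgeR). CEBPD (chromosome 2, 107580235 to 107581834) had 136, 130.2 and 159 CPM in Control and 187, 199 and 202 CPM in LPS. The groups did not overlap, although Control replicate 3 stood above the other Control libraries, and the log2 fold change of 0.48 (SE 0.0674, FDR 5.0e-05 with edgeR) did not reach the fold-change minimum. With limma after quantile normalization the log2 fold change was 0.40 and the FDR 0.056. The size of the difference was similar, but FDR under 0.05 was no longer reached.

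MEF2C, MAF and KLF4 are the factors that fell. MEF2C (chromosome Z, 61121809 to 61259046) had 45.9, 47.3 and 43.1 CPM in Control and 11.2, 10.5 and 9.33 CPM in LPS. Its level was 4.35-fold lower, a log2 fold change of -2.12 (SE 0.0963, FDR 1.9e-10 with edgeR), and 1.33% of all genes tested changed by more. KLF4 (chromosome Z, 56393942 to 56398448), a zinc finger factor, fell from 62.3, 65.1 and 65.7 CPM to 20.1, 21.6 and 25.4 CPM. All Control libraries were above all LPS libraries, and the log2 fold change was -1.51 (SE 0.0862, FDR 2.8e-09 with edgeR). MAF (chromosome 11, 14174786 to 14334814) was the least abundant of the 9 in counts, with 105, 122 and 144 counts in Control and 25, 49 and 34 in LPS. In CPM these are 6.98, 8.00 and 8.39 against 1.93, 3.62 and 2.56, which do not overlap. Its log2 fold change of -1.51 had a wider SE of 0.219 (FDR 7.4e-05 with edgeR), and the 95% interval ran from -1.98 to -1.04.

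SeMC/CTR asks whether the selenium compound by itself altered the same factors in cells that received no LPS. None of the 9 was called with edgeR, against 8.50% of the 13146 genes tested called higher and 5.58% called lower. DESeq2 and both limma alternatives (voom, and quantile normalization) also called 0 of the 9, and 4 of the 9 had an unadjusted p under 0.05 in edgeR. The same 4 passed FDR under 0.05 without the fold-change minimum, where CEBPA, CEBPD and RUNX1 were higher and MYB was lower in SeMC+PBS. By that rule 20.3% of all genes tested were higher and 19.1% lower. The same 4 factors were also those whose libraries did not overlap with Control, as was the case for 51.0% of all genes tested.

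CEBPA had the largest of these differences. It stood at 128, 131 and 121 CPM in SeMC+PBS against 88.7, 77.5 and 89.7 CPM in Control. The groups did not overlap, and the fold change of 1.49 (log2 0.57, SE 0.066, FDR 1.9e-05 with edgeR) lay just under the minimum of 1.5, with an interval from 1.35 to 1.64 (95% confidence). Leaving out Control replicate 1, Control replicate 3 or SeMC+PBS replicate 3 moved it just above the minimum, with log2 fold changes of 0.60, 0.61 and 0.61, so whether CEBPA counts as called depends on 1 library.

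RUNX1 was 520.3, 568 and 532 CPM in SeMC+PBS, above the 439 to 448 CPM of Control in every library. Its log2 fold change was 0.29 (SE 0.0547, FDR 8.4e-04 with edgeR). CEBPD was 173, 177 and 175 CPM in SeMC+PBS, above the highest Control library of 159 CPM, with a log2 fold change of 0.30 (SE 0.0677, FDR 0.0026 with edgeR) and one of 0.30 with an FDR of 0.082 with limma after quantile normalization. MYB was 894, 866 and 901 CPM, below the lowest Control library of 971 CPM, with a log2 fold change of -0.18 (SE 0.0564, FDR 0.020 with edgeR). The FDR of MYB was 0.078 without Control replicate 1 (log2 fold change -0.14, edgeR), 0.052 without SeMC+PBS replicate 1 (-0.18) and 0.069 with limma after quantile normalization (-0.18). Over 13 alternatives the log2 fold change stayed between -0.20 and -0.14, and MYB was called in none of them. Passing FDR under 0.05, and not the direction, depended on the setting.

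For the other 5 factors the SeMC+PBS and Control libraries overlapped. SPI1 had 405, 398 and 376 CPM in SeMC+PBS and a fold change between 0.891 and 1.05 (95% confidence). CEBPB had 813, 781 and 826 CPM, and its fold change lay between 0.985 and 1.16. MEF2C, with 50.5, 46.4 and 46.9 CPM, had an interval of 0.948 to 1.18. KLF4 had 65.6, 54.0 and 67.2 CPM, where SeMC+PBS replicate 2 was below the other libraries and its fold change lay between 0.860 and 1.09. MAF had 7.90, 8.16 and 8.75 CPM with the widest interval of the 5, from 0.852 to 1.32. All 5 intervals leave out a change of 1.5-fold in either direction, although smaller changes remain possible.

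**Figure D2:**
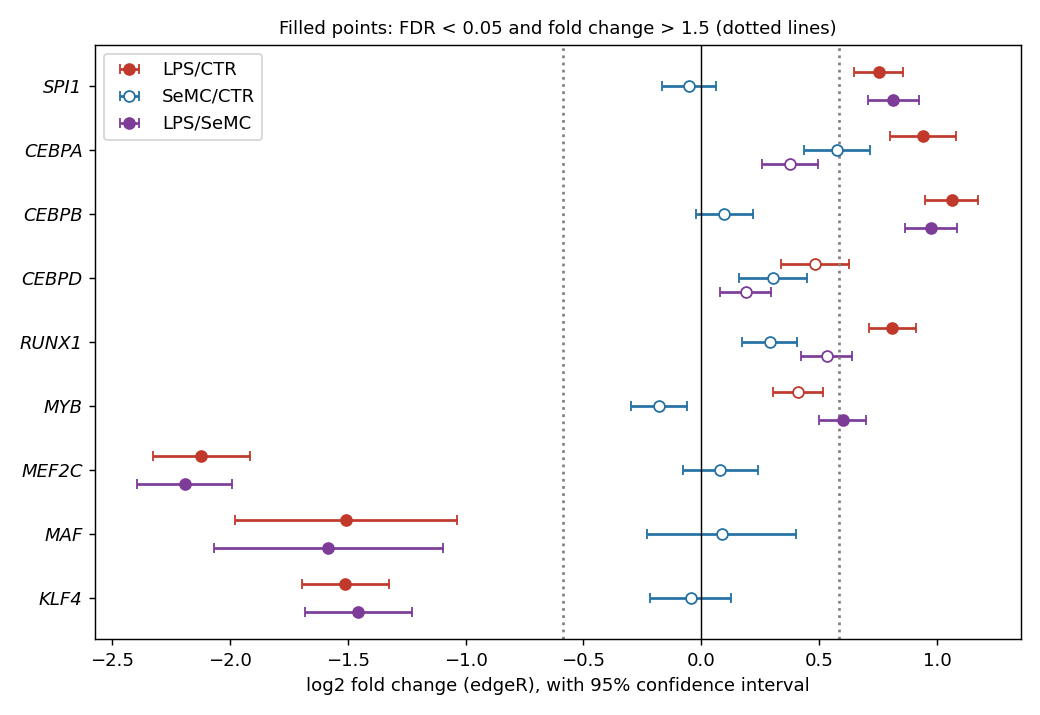
Log2 fold change of each factor in LPS/CTR, SeMC/CTR and LPS/SeMC with its 95% confidence interval. Filled points passed FDR under 0.05 and a fold change above 1.5, marked by dotted lines. In LPS/CTR 7 of 9 points are filled and in SeMC/CTR none is, and none of the 9 LPS/SeMC intervals includes 0.

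Because LPS/CTR and SeMC/CTR use the same Control libraries, the treatments were also compared directly. In LPS/SeMC, SPI1, CEBPB and MYB were called higher in LPS and MEF2C, MAF and KLF4 lower, against 10.4% and 12.5% of the 12979 genes tested. All 9 factors passed FDR under 0.05, with 6 higher and 3 lower in LPS, while 27.1% and 27.2% of all genes did so in each direction. None of the 9 overlapped between the 2 groups of libraries, as was true of 61.5% of all genes tested. MEF2C was 4.57-fold lower in LPS than in SeMC+PBS (log2 fold change -2.19, SE 0.0935, FDR 5.2e-10 with edgeR). SPI1 was 1.76-fold and CEBPB 1.97-fold higher in LPS. MYB, which was higher than Control in LPS and lower than Control in SeMC+PBS, differed by 1.52-fold between them, close to the minimum. Its log2 fold change of 0.60 fell to 0.58 with all 9 libraries in 1 fit and to 0.40 with limma on quantile-normalized values, both under the minimum. CEBPA and CEBPD differed less between the treatments, by 1.30-fold and 1.14-fold. For CEBPD the log2 fold change was 0.19 with an FDR of 0.0064 in edgeR, and 0.084 with an FDR of 0.29 with limma after quantile normalization.

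Ratios of counts within a library do not depend on how libraries are scaled, and 5 of them were compared, chosen after the counts had been seen. The ratio of CEBPB to CEBPA counts was 8.51, 9.25 and 8.83 in Control, 9.51, 9.49 and 9.90 in LPS and 6.35, 5.95 and 6.80 in SeMC+PBS. The LPS mean was 1.09-fold above the Control mean and the SeMC+PBS mean 1.39-fold below it, and the 3 groups did not overlap. The ratio of CEBPB to CEBPD rose from 4.99 to 5.56 in Control to 7.72 to 8.19 in LPS. The ratio of MEF2C to SPI1 counts fell from 0.112 ± 0.00844 in Control to 0.0152 ± 0.00185 in LPS (SD, n = 3), a 7.32-fold difference, and was 0.122 ± 0.00473 in SeMC+PBS. For KLF4 to SPI1 the difference between Control and LPS was 4.81-fold. With 3 libraries against 3, an exact two-sided permutation test cannot give a p below 0.10. Of the 15 comparisons of these ratios, 12 reached that value (0.125 after Benjamini-Hochberg adjustment), and the other 3, all SeMC/CTR, overlapped. A p of 0.10 in this test says only that the 2 groups do not overlap. How often ratios of other genes do so was not tested.

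**Figure D3:**
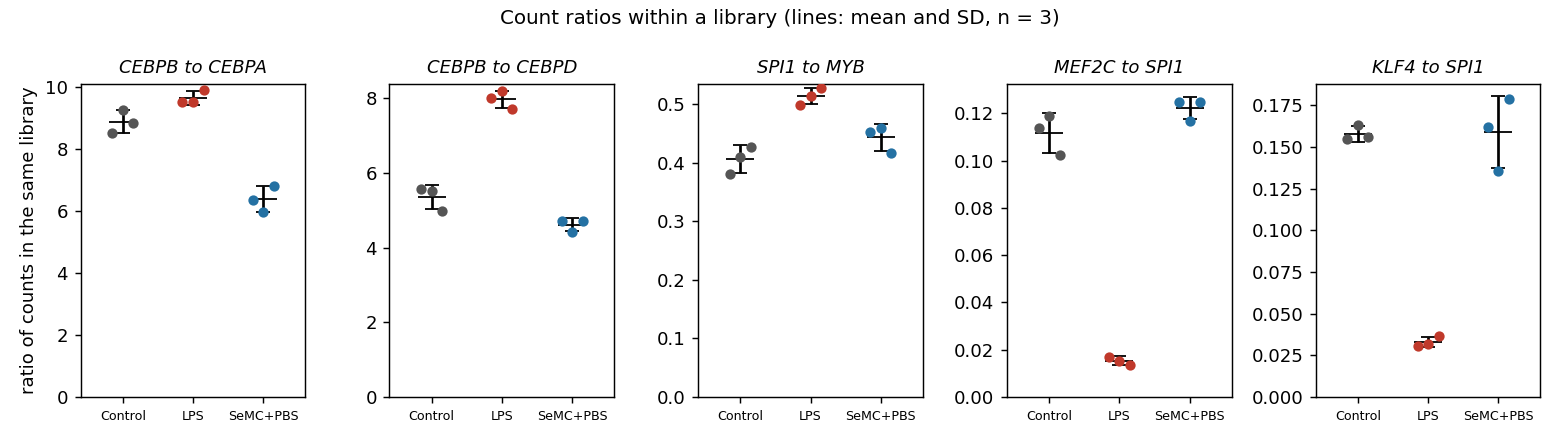
Ratios of counts of 2 factors in the same library, by group, on linear axes from 0. Points are libraries, and lines are means with SD (n = 3). MEF2C to SPI1 and KLF4 to SPI1 drop in LPS, and CEBPB to CEBPA is lowest in SeMC+PBS.

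Several of these genes share their genomic interval with another annotated gene, and the sources used here do not state whether strand was used in counting, so reads could be lost or assigned to the other gene. SPI1 lies entirely within the annotated span of SLC39A13, a zinc transporter gene with 512 to 1113 counts against 4339 to 9301 for SPI1. SLC39A13 was higher in LPS as well, with a log2 value of 0.71, close to the 0.75 of SPI1, and the part of shared reads in this was not tested. CEBPD lies within LOC421106, which had 311 to 592 counts and a log2 ratio of 0.14 in LPS/CTR (FDR 0.21 with edgeR). FAM65C covers 21.6% of the CEBPB span and was higher in LPS by a log2 fold change of 0.39. The lncRNA LOC121108643 covers 23.6% of KLF4, with 9 to 63 counts, and was higher in SeMC+PBS by a log2 fold change of 2.03 while KLF4 was not. WWOX touches 0.593% of MAF. The lncRNA genes LOC112532083 and LOC101752071, which are not among the genes counted, cover 1.95% of MYB and 6.63% of MEF2C. CEBPA and RUNX1 overlap no other annotated gene.

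Relatives and DNA-binding partners of the 9 factors were taken as a list of 20 genes, of which 16 were tested. In LPS/CTR 3 were called higher and 2 lower, against 6.13% and 5.92% of all genes tested, and the other 11 were not called. KLF5 rose 2.86-fold, from 58.4 ± 1.18 to 165 ± 3.33 CPM (SD, n = 3), whereas KLF2 fell 2.44-fold, from 68.9 ± 3.32 to 28.0 ± 2.80 CPM, the same direction as KLF4. MEF2D fell 2.38-fold, from 253.5 ± 17.9 to 105.5 ± 3.79 CPM, while MEF2A, at 56.4 ± 1.11 and 74.7 ± 4.42 CPM, was higher by a log2 fold change of 0.42 without being called. The small MAF proteins MAFF (log2 fold change 0.98) and MAFK (0.73) rose while MAF fell. MAFG, the remaining small MAF gene of the list, had 20.1 ± 2.13 CPM in Control and 23.6 ± 1.54 CPM in LPS (SD, n = 3; FDR 0.082 with edgeR). In SeMC/CTR, MAFF was called higher (1.62-fold) and KLF6 lower (1.60-fold, FDR 0.022 with edgeR), against 8.50% and 5.58% of all genes tested. The other 14 of the 16 were not called. KLF6 was low, with 38 to 131 counts per library. Its level was 6.88 ± 0.718 CPM in Control and 4.31 ± 1.34 CPM in SeMC+PBS (SD, n = 3). MEF2D, KLF5 and MAFK overlap another annotated gene.

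A list of 28 other haematopoietic transcription factors had 20 members tested. In LPS/CTR 2 were called higher and 3 lower, against 6.13% and 5.92% of all genes tested. BATF3, a basic leucine zipper factor known from dendritic cells in mammals, rose 7.69-fold, from 10.2 ± 0.385 to 77.8 ± 7.19 CPM (SD, n = 3), and ETV6, an ETS-family repressor that overlaps another gene, rose 1.61-fold. IRF8, which binds DNA together with SPI1, fell 2.53-fold, from 739 ± 50.3 to 289 ± 5.51 CPM (SD, n = 3), so that SPI1 and its partner moved in opposite directions. ID2, an inhibitor of helix-loop-helix factors, fell 1.72-fold, and BCL11A, chosen for naming after its value was seen, was the third gene called lower. In SeMC/CTR, where 8.50% and 5.58% of all genes tested were called higher and lower, only ID1 was called among the 20, with 7.20 ± 0.616 CPM in Control and 13.7 ± 2.87 CPM in SeMC+PBS (SD, n = 3), a log2 fold change of 0.93 (FDR 4.5e-04 with edgeR). IRF8 had a log2 fold change of 0.04 in SeMC/CTR (FDR 0.57 with edgeR). The medians over this list were 0.0057 in LPS/CTR and -0.027 in SeMC/CTR, near those of all genes.

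Genes that textbooks name as direct or indirect targets of these factors formed a list of 19, of which 16 were tested in LPS/CTR. Of these, 7 were called higher, 4 lower and 5 not called, against 6.13% higher and 5.92% lower among all genes tested. LECT2, which RefSeq gives as the current symbol of MIM1, the mim-1 gene that MYB and CEBPB activate together in chicken myeloid cells, rose 8.93-fold, from 725 ± 34.3 to 6411 ± 121 CPM (SD, n = 3). IL8L2 rose 25.9-fold and IL8L1 23.8-fold, both chicken CXCL8-like chemokine genes that overlap another annotated gene. CSF3, which encodes a myelomonocytic growth factor, rose from 0.714 ± 0.419 to 12.2 ± 0.897 CPM (SD, n = 3). Its low level in Control left the log2 fold change of 4.12 with a wide SE of 0.276. LYZ (7.98-fold), CYBB (1.75-fold) and IL10 (log2 fold change 0.82) were the other genes called higher, and LYZ and CYBB overlap another annotated gene.

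The 4 target genes called lower in LPS were CSF1R, CSF2RA, MERTK and MRC1, named here because they were so few. CSF1R, the receptor for the macrophage growth factors CSF1 and IL34 and a classical target of SPI1, fell 6.59-fold, from 355 ± 13.6 to 53.4 ± 3.47 CPM (SD, n = 3), while SPI1 itself was higher. CSF2RA fell 2.44-fold and MERTK, a receptor for apoptotic cells, 2.12-fold. CSF3R, the receptor for CSF3, was lower by a log2 fold change of -0.33 and was not called. CD14 (-0.20) and ITGB2 (-0.14) were also lower in LPS at FDR under 0.05 without being called. At FDR under 0.05 alone, 7 of the 16 targets were higher and 7 lower in LPS/CTR, against 18.0% and 16.5% of all genes tested. In SeMC/CTR, IL10 was the gene called among 15 tested, against 8.50% higher and 5.58% lower among all genes tested, falling from 5.04 ± 0.465 to 1.81 ± 0.323 CPM (SD, n = 3; log2 fold change -1.47, FDR 4.4e-04 with edgeR). At FDR under 0.05 alone, CSF2RA (log2 fold change -0.48), CD14 (-0.41), ITGB2 (-0.31) and LECT2 (-0.18) were lower too, and IL8L1 (0.47) and IL8L2 (0.42) higher. With IL10, 5 of the 15 were thus lower and 2 higher, against 19.1% and 20.3% of all genes tested. LECT2 is also a granulocyte marker, and the summed level of the 3 granulocyte and progenitor markers in the table was 2053 to 2103 CPM in Control and 7378 to 7670 CPM in LPS. Without LECT2 the sum of CSF3R and GATA2 was 1329 to 1403 CPM in Control and 1049 to 1121 CPM in LPS, so the rise of the marker sum was that of LECT2. MYC did not pass the test in either comparison with Control, with log2 fold changes of -0.0033 and -0.011 (FDR 0.98 and 0.93 with edgeR), and whether its counts include reads of the viral gene was not tested.

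**Figure D4:**
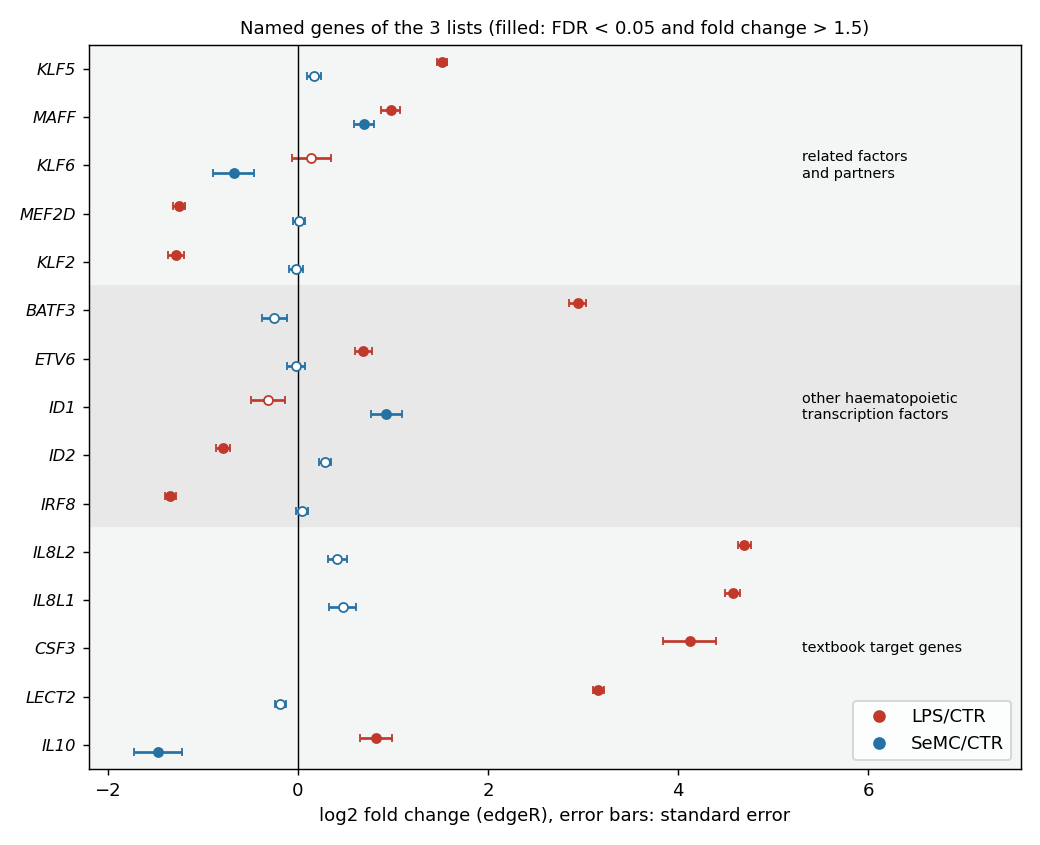
Log2 fold change, with its standard error, of the named relatives, other haematopoietic factors and target genes in LPS/CTR and SeMC/CTR. Filled points were called. In LPS/CTR, IL8L2, IL8L1, CSF3 and LECT2 lie at 3.16 to 4.70, and ID1 and IL10 stand out in SeMC/CTR. CSF3 was not tested in SeMC/CTR.

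Likeness of pattern was described as the Pearson correlation of log2(CPM + 1) over the 9 libraries with each of 9216 other genes (9217 for MAF). These values follow mainly from the differences between the 3 groups, so they are given without a test. MEF2C was most like C1QB, SLC6A4 and PMEPA1 (r = 0.997 for each), and in LPS/CTR these had log2 fold changes of -4.31, -1.04 and -2.15. KLF4 was most like ARFGEF3, QPCT and CSF1R (r of at least 0.995), and genes like MAF included RASSF2 (r = 0.991) and TAF5L (r = 0.985). SPI1 was most like PLSCR1 (r = 0.997), CCNDBP1 and BATF3, and CEBPB was most like IL8L2 (r = 0.996), CHST13 and CREB1. For RUNX1 the nearest genes were ATF3, PLXNA1 and MCAT (r of at least 0.992), and for MYB they were GPR27, CD74 and TSPO (r of at least 0.993). For CEBPA and CEBPD the highest r values were lower. CEBPA was nearest to PDE4C (r = 0.982), a gene with log2 fold changes of 1.13 in LPS/CTR and 0.59 in SeMC/CTR, then to TOR4A and RNF19B. CEBPD was nearest to DBN1 (r = 0.984), NSA2 and ECD.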

How the data were processed

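RNA-seq counts of HD11 cells were used from 9 of the 12 libraries. After read filtering, the authors aligned single-end reads to GRCg7b using Hisat2, and HTSeq gave the raw counts of 16161 gene symbols that were deposited. Tool versions, annotation release and strand setting are not given in the sources used here. The authors tested with limma, and their thresholds were kept. No column outside the 12 libraries was found. Groups and replicate numbers come from the sample labels.

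For each pair of groups, 6 libraries entered edgeR 4.0.16 (R 4.3.3). TMM scaling and filterByExpr (minimum count 10) preceded the quasi-likelihood test, with Benjamini-Hochberg adjustment over all genes tested. Levels in CPM use TMM factors over the 9 libraries. Intervals use the standard error and the test's degrees of freedom. Depth of 10656332 to 17024392 counts limits the precision of low genes such as MAF.

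The factors, lists and comparisons were chosen with earlier results of these data known. Genes named from a list are the 4 with the largest log2 fold change among those called in LPS/CTR and in SeMC/CTR and averaging 50 counts or more, and genes of like pattern are the 3 with the highest r among those averaging 100 counts or more under a symbol other than a LOC identifier. Others named were chosen after their values were seen. Some genes that met these rules are not reported here. Of 87 listed genes, 67 were found in the table, 1 of them through a RefSeq synonym. Positions are 1-based on GRCg7b from RefSeq, and promoter and protein sequences were not analysed here.

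The alternatives replaced edgeR by DESeq2 1.42.0, by limma-voom or by limma 3.58.1 after quantile normalization of log2(count + 1). DESeq2 and limma after quantile normalization took every gene with a count, without the low-count filter, so the genes tested differed as well. Others replaced TMM by RLE factors, dropped the low-count filter, fitted 9 libraries together, added a replicate block, set fold changes above 1.2 or without a minimum, or left out each library. Scripts were tested on simulated data in which 200 genes averaging 50 counts or more were changed 2-fold. Of these, edgeR called 191 to 197 per comparison, with 2 to 6 other genes. For limma after quantile normalization these were 153 to 159 and 13 to 27. Recovery of genes with lower counts, or of changes near the fold-change minimum, was not tested. Figures were drawn with matplotlib 3.10.9 in Python 3.11.15.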

Additional observations from a re-analysis of the deposited data

How the results depend on the processing

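The fold-change minimum moved the number of genes called most. With no minimum, 4491 genes were called in LPS/CTR, 5172 in SeMC/CTR and 7051 in LPS/SeMC, and above 1.2-fold these were 3597, 4111 and 5883. Among the 9 factors, 4 were called in SeMC/CTR with no minimum and 3 above 1.2-fold, and leaving out each library in turn gave 0 to 1, the 1 being CEBPA. KLF4 in SeMC/CTR had a log2 fold change of -0.10 to 0.046 when 1 library was left out, positive without SeMC+PBS replicate 2, against -0.045 with all libraries. In LPS/CTR, the 7 factors called stayed called in the same direction under all 13 alternatives that kept the 1.5-fold minimum. In LPS/SeMC the exceptions were those given for MYB. On quantile-normalized values with limma, 801 genes were higher and 1149 lower in SeMC/CTR, so that 41.1% were higher against 60.4%. In LPS/SeMC the same setting gave 1770 higher and 1490 lower, or 54.3% higher against 45.4%, while in both the median of all genes moved by less than 0.1 on the log2 scale. Limma on quantile-normalized values also kept genes that the low-count filter removes. In edgeR without that filter, 56.5% were higher in SeMC/CTR and 46.4% in LPS/SeMC. Replicate numbers did not pair the libraries, since deviations of same-numbered libraries from their group means correlated at -0.090 to 0.055 in the 9 pairs. With the replicate block 1523, 1844 and 2971 genes were called in LPS/CTR, SeMC/CTR and LPS/SeMC, and the factors called were 7, 0 and 6, as without it. Depth limits MAF most, with 25 to 144 counts per library.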
